A study of Mus musculus with 491 samples.

Results

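The Oc90-high otic epithelial cells are 68 single cells from the otic vesicle and the tissue around it in the mouse embryo. They make up 13.8% of the cells of the collection, and the other 423 serve for comparison. They were chosen from their own expression values, on the scale log2(FPKM + 1). FPKM is the number of sequenced fragments of a gene, divided by the length of its transcript and by the fragments of the whole library. A member has Epcam of at least 5, Oc90 of at least 4, Trp63 below 3 and Neurod1 below 5. All cells were at stage E10.5 and carried Pax2-Cre/+;Ai14-tdTomato/+, so that a cell that had expressed Cre from the Pax2 transgene, or descended from such a cell, was red and could be sorted as tdTomato+. Every group below therefore shares that genotype and that sort, and the groups are gates on expression, not genotypes or treatments. The labels give 2 replicates, with plates 1 to 3 in replicate 1 (237 cells) and plates 4 to 6 in replicate 2 (254 cells), and do not say whether a replicate is an embryo, a litter or a day. Members made up 38 cells of replicate 1 (16.0%, exact 95% interval 11.603 to 21.337, counting error only) and 30 cells of replicate 2 (11.8%, 8.11 to 16.4), and each plate held 8 to 17 of them.

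The otic vesicle is the closed epithelial sac from which the inner ear develops. Its wall is patterned early into domains: a neurosensory domain that gives rise to the neuroblasts of the inner ear ganglion and later to sensory patches, and non-sensory domains, among them the dorsal wall that forms the endolymphatic duct and the canals. Wnt signals from the hindbrain and BMP signals act dorsally, while Notch and FGF signalling are tied to the neurosensory domain. Oc90 encodes otoconin-90, the main protein of the otoconia, the mineral grains that load the gravity-sensing organs of the mature ear, and it is made by the non-sensory epithelium of the vesicle long before otoconia form.

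Members were set against 2 references. The closer reference was 52 epithelial cells without Oc90 that express the otic and neural crest factor Sox10, called the Oc90-negative cells here (Epcam of at least 5, Oc90 below 1, Sox10 of at least 1). The wider one was all 423 other cells. For the tests, the other cells were sorted into 5 classes: the Oc90-negative cells, 34 Trp63-positive epithelial cells, 24 other Epcam-high cells, 165 Epcam-low cells and the Neurod1-positive cells. The mean of each class was taken in each replicate, and limma, a linear model that shares information on the spread among genes, was fitted to the 12 means with the replicate as a block. A gene was called at an adjusted p below 0.05 (Benjamini-Hochberg over all 10232 genes tested). A gene counts as found in a cell at an FPKM of at least 1. Replicates are not stated to be separate animals, so the p-values measure the spread between these means, which may be technical.

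The values of some wells were not independent of each other. Whether RNA passed between wells, or reads were assigned to the wrong well, was not tested. Rare transcripts, each found in 2 to 5 cells, were shared between fixed pairs of plate rows, and 18 such links had a clear direction, 16 of them between neighbouring rows. In the receiving well the shared transcripts stood at a median of 7.65% of the FPKM in the source well (quartiles 4.71% and 14.75%). Of the members, 47 lay in a row with such a source and 21 did not. In 5 members Oc90 or Epcam was below 15% of the value in the source well. For these cells, their own expression and signal from the source well cannot be told apart. The main comparison is also given without the cells or values concerned.

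Epcam, an adhesion protein of epithelia, ranged in members from 5.81 to 9.24 (median 7.91). Oc90 ranged from 4.16 to 12.13 (median 7.83), with replicate means of 7.70 and 7.99. Both genes chose the cells, so these levels are a description. Oc90 was close to an on-or-off gene: 66 Epcam-high cells missed the gate on Oc90 alone, and only 8 of those lay between 1 and 4. The lowest members had Oc90 of 4.16, 4.41 and 4.46, and the highest cells outside had 3.90, 3.62 and 3.38. On Epcam the lowest member had 5.81 and the highest cell left out on Epcam alone had 4.39. On Neurod1 the highest member had 4.86 and the lowest cell left out on Neurod1 alone had 5.13, and no cell was left out on Trp63 alone. Sox10, which was not part of the gate for members, was found in 57 of 68.

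**Figure D1:**
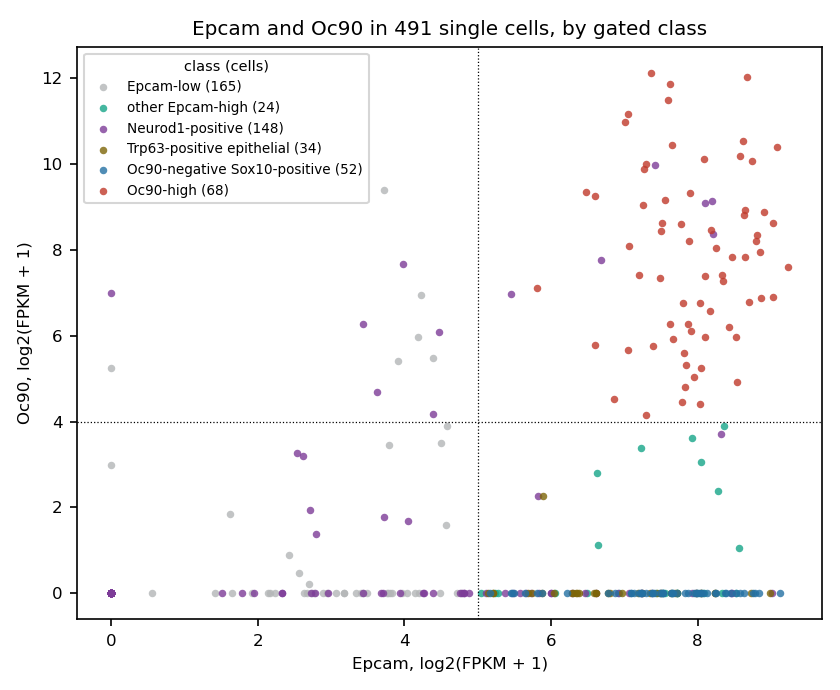
Epcam against Oc90, both as log2(FPKM + 1), in each cell of the collection, 1 point per cell and coloured by class, with dotted lines at the gates of 5 and 4. The 68 Oc90-high cells fill the upper right, most other Epcam-high cells lie at an Oc90 of 0, and only 8 cells left out on Oc90 alone lie between 1 and 4.

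The markers named with these cells, Vnn1, Gbx2, Car2 and Dlx5, were chosen with results of these data known and are described without a test. Dlx5, a homeobox factor needed for the dorsal vesicle, was found in 56 members (82.4%, exact interval 71.2 to 90.5), in 26 of 52 Oc90-negative cells (exact interval 35.8 to 64.2%) and in 18.7% of all others. Its replicate means were 5.08 and 4.64 in members and 2.08 and 2.55 in Oc90-negative cells, and members were higher in 6 of 6 plates. Vnn1, a pantetheinase on the cell surface, was found in 55.9% of members, 30.8% of Oc90-negative cells and 18.0% of all others. Gbx2, a homeobox factor of the dorsal vesicle, was found in 60.3%, 40.4% and 23.2%, and members had the higher mean in only 4 of 6 plates. Car2, a cytosolic carbonic anhydrase, was found in 85.3%, 76.9% and 27.9%. No marker of the 4 was found in every member, and Car2 was nearly as frequent in the Oc90-negative cells.

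Other genes of the otic epithelium were present in members. Sox9 was found in 98.5%, Tbx2 in 92.7%, Lmx1a in 76.5%, Gata3 in 70.6% and Pax8 in 44.1%, and all 5 were called higher than in all other cells, by 1.69 (Pax8) to 3.17 (Tbx2) on the log2 scale. None of the 5 was called against the Oc90-negative cells. Pax2 itself, whose transgene drives Cre, was found in only 6 members (8.82%) and 9 Oc90-negative cells (17.3%). Hmx2 and Hmx3, homeobox factors of the dorsolateral vesicle, were found in 12 members each.

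**Figure D2:**
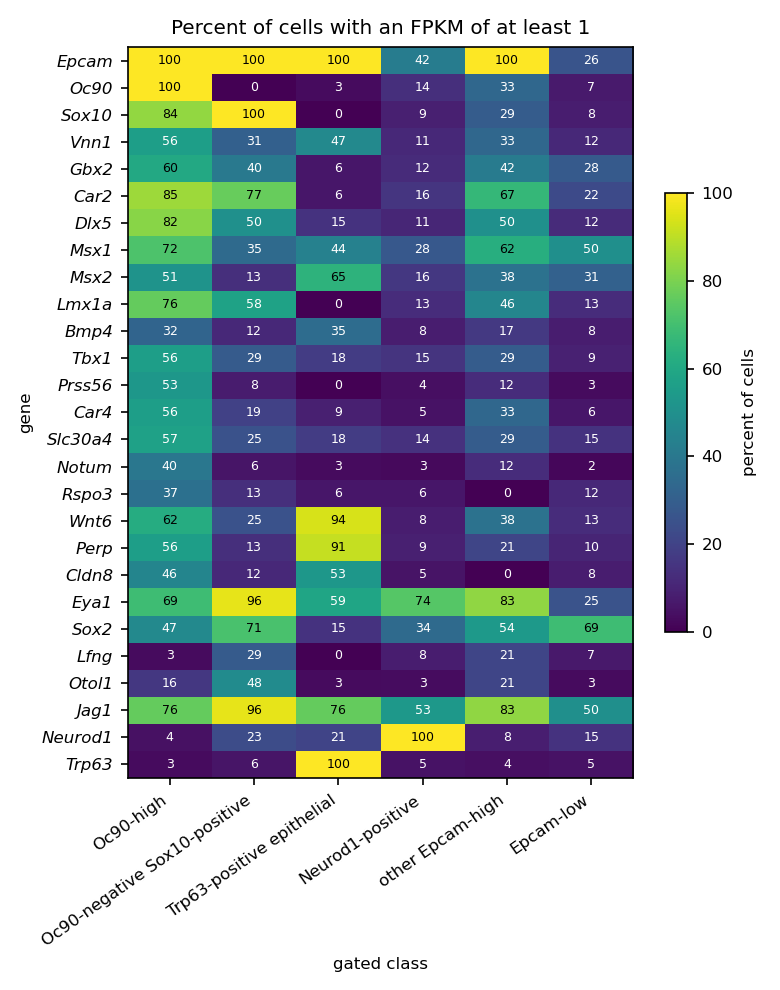
Percent of cells with an FPKM of at least 1 for 27 genes (rows) in the 6 gated classes (columns), with the percent printed in each cell of the grid. Prss56 was found in 52.9% of Oc90-high cells and in no Trp63-positive cell, while Wnt6 and Perp were found in more of the Trp63-positive than of the Oc90-high cells.

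Against the Oc90-negative cells, members were higher in the protease gene Prss56, the carbonic anhydrase gene Car4 and the Wnt inhibitor gene Notum, and lower in the neurosensory gene Lfng and the otoconial scaffold gene Otol1. Of 10232 genes, 24 were called (0.235%), 19 higher in members (0.186%) and 5 lower (0.0489%), while the median difference of all genes was -0.05. At an unadjusted p below 0.05, 378 genes were higher and 432 lower. All 24 differences had the same sign in both replicates, and 21 had it in 6 of 6 plates. Without plate 3 limma called 4 genes, all of them higher, and it called 13 to 21 without any 1 of the other plates (13 without plate 1 and 14 without plate 5). A single replicate leaves 1 mean per class, so the fits without a replicate used the plate means of the other replicate: they called 3 genes without replicate 1 and 2 without replicate 2, all higher, where plate means of both replicates gave 34 higher and 6 lower. With the log taken after averaging FPKM limma called 0 genes, with 428 genes higher and 251 lower at an unadjusted p below 0.05. All 24 genes kept their sign in each of those fits.

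Prss56 encodes a secreted serine protease known from eye development, and it separated members most clearly. In single members it ranged from 0 to 9.19 (median 3.01), and in Oc90-negative cells from 0 to 6.89 (median 0). The cells of the groups overlapped, but the replicate means did not: 3.14 and 3.38 in members against 0.15 and 0.65 in Oc90-negative cells. The difference was 2.87 (SE 0.23, adjusted p = 4.61e-05) and held in 6 of 6 plates. Prss56 was found in 36 of 68 members (52.9%, exact interval 40.45 to 65.17) and in 4 of 52 Oc90-negative cells (7.69%, 2.14 to 18.5). Its means over the other classes were 0.38 in other Epcam-high cells, 0.14 in Neurod1-positive cells, 0.11 in Epcam-low cells and 0 in Trp63-positive cells. It stayed called in 22 of the 23 other settings tried, and its adjusted p was 0.0584 in the exception, the fit on averaged FPKM.

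The Prss56 promoter is shown because the genes that vary with Prss56 among members, given further below, include the Wnt target and Wnt inhibitor Notum. The window is the 250 bases up to the annotated start of transcription on the plus strand, chr1:87183064-87183313 (RefSeq, GRCm38.p6). Capitals mark the letters CTTTGA, the core of the sites bound by TCF and LEF factors of the Wnt pathway, or their reverse complement TCAAAG.
Prss56: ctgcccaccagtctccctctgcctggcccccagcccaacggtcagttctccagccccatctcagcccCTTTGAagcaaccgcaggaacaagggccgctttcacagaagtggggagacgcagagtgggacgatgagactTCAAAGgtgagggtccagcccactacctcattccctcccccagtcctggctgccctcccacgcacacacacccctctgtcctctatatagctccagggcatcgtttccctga
These letters occur in this window on both strands. They occur in 13.8% of 32851 RefSeq promoter windows of that length, and in those of 3 of the 15 called genes with an entry (Prss56, Bmper and S100a11), so a match here is a description and not a site. The homeodomain core TAATTG (reverse complement CAATTA), which is present in 7.17% of windows, was matched in Lfng alone among the 15.

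Car4 and Slc30a4 encode an enzyme and a transporter of membranes. Car4, a carbonic anhydrase anchored on the outer cell surface, had replicate means of 3.93 and 3.46 in members and 1.13 and 1.07 in Oc90-negative cells, a difference of 2.59 (SE 0.35, adjusted p = 0.00621). It was found in 38 members and 10 Oc90-negative cells. Of the other carbonic anhydrases tested, Car14 was near 5 in both classes (5.36 and 4.65 against 5.03 and 5.46), and Car4 was the only one called of the 4 tested. Slc30a4, a zinc exporter, had means of 3.06 and 3.53 against 0.84 and 1.54 (difference 2.11, SE 0.39, adjusted p = 0.0353), and it stayed called in 11 of 24 other settings.

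Several called genes encode secreted regulators of signalling. Notum, an extracellular esterase that inactivates Wnt proteins and is itself a Wnt target, was found in 27 members and 3 Oc90-negative cells. Its replicate means were 1.82 and 1.87 against 0.22 and 0.16, a difference of 1.65 (SE 0.19, adjusted p = 0.00195). Rspo3, an R-spondin that strengthens Wnt signalling, had means of 1.72 and 2.54 against 0.41 and 0.67, and was higher in 5 of 6 plates. Rspo3 stayed called in 13 of 23 other settings. Wnt6, a Wnt ligand, had means of 3.90 and 3.46 against 1.45 and 1.37 (difference 2.27, SE 0.43), but its adjusted p of 0.045 was close to the threshold and it stayed called in only 8 of 24 other settings. Bmper, a secreted BMP-binding protein, was found in 28 members and in 1 Oc90-negative cell, with means of 2.06 and 2.03 against 0.14 and 0.01. Pdgfd, a ligand of the PDGF receptor beta, had means of 2.301 and 2.491 against 0.793 and 0.523.

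Other called genes encode junction, matrix and calcium-binding proteins. Perp, a membrane protein of desmosomes, had means of 3.44 and 3.34 in members against 1.08 and 0.33 (difference 2.69, SE 0.40, adjusted p = 0.00865). Cldn8, a tight junction claudin, had means of 2.823 and 3.003 against 0.503 and 0.487. Sparc, a collagen- and calcium-binding matrix protein, was found in 89.7% of members and 63.5% of Oc90-negative cells, with means of 5.266 and 6.137 against 3.453 and 3.503. S100a11, a calcium-binding protein, had means of 6.37 and 6.54 against 4.45 and 4.65, and stayed called in only 7 of 24 other settings. Lhfp, a tetraspan membrane protein, had means of 3.09 and 3.67 against 0.67 and 1.27.

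Genes called lower in members included Cdo1, Otol1, Lfng and Stmn1. Lfng, a glycosyltransferase that modifies Notch and marks the neurosensory domain, was found in 2 members and 15 Oc90-negative cells, with no member above 1.25. Otol1 encodes otolin, the collagen-like scaffold of otoconia, and it went the other way from Oc90: it was found in 11 members (16.2%) and 25 Oc90-negative cells (48.1%), with means of 0.63 and 0.49 against 2.57 and 1.96. Cdo1, cysteine dioxygenase, had means of 1.68 and 1.82 against 4.35 and 4.37. Stmn1, which destabilises microtubules, was found in every cell of both classes and was lower by a smaller amount, 8.65 and 8.79 against 9.25 and 9.26. Stmn1 stayed called in only 8 of 24 other settings, and Lfng in 12 of 23.

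**Figure D3:**
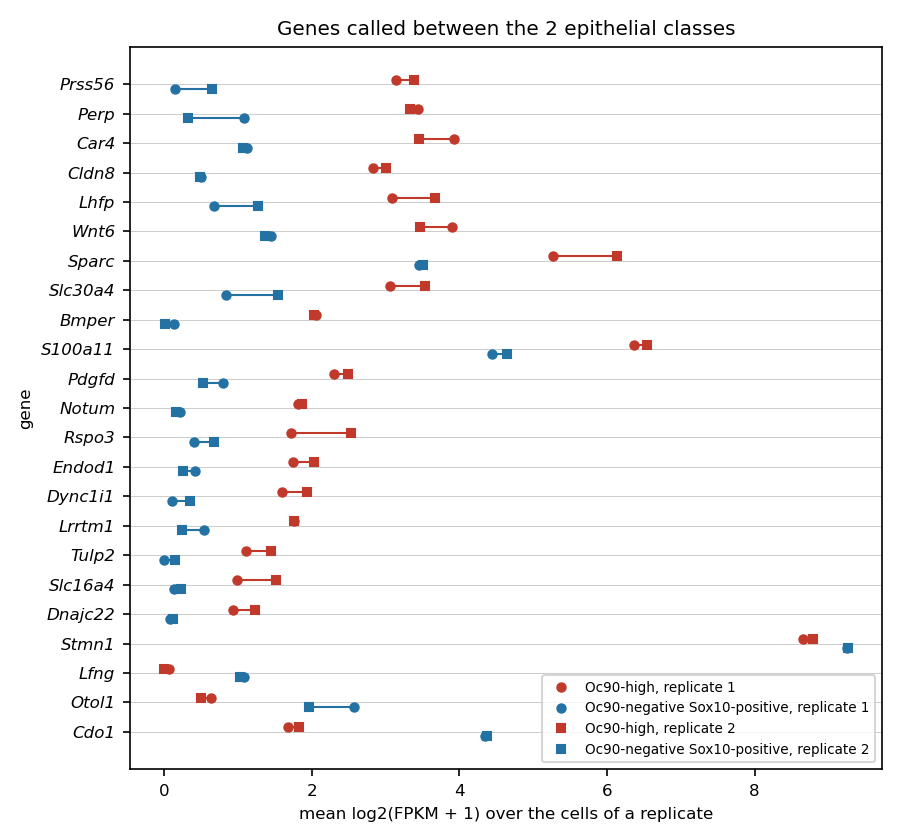
Mean log2(FPKM + 1) per replicate of 23 of the called genes, in Oc90-high cells (red) and Oc90-negative Sox10-positive cells (blue), with circles for replicate 1, squares for replicate 2 and a line joining the replicates. For each gene the red and blue ranges do not overlap, which the call favours, and Prss56 shows the largest gap among the genes higher in members.

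Standing above the Oc90-negative cells was not the same as standing above the whole collection. Only 11 genes (0.108%) were called higher in members than in each of the 5 other classes: Prss56, Car4, Slc30a4, Lhfp, Pdgfd, Rspo3, Notum, Endod1, Lrrtm1, Tulp2 and Dnajc22. Their smallest difference to any class ran from 2.87 for Prss56 and 2.24 for Car4 down to 0.89 for the co-chaperone gene Dnajc22. limma called 3 such genes without plate 3, 5 to 11 without any 1 of the other plates (5 without plate 5, 6 without plate 1 or 2), and 0 on averaged FPKM. On plate means it called 23 with both replicates, 3 without replicate 1 and 2 without replicate 2. In the comparison with the Oc90-negative cells, Lrrtm1 stayed called in 10 of 23 other settings, and Dnajc22 in 14 of 23. Perp, Wnt6 and S100a11 had higher means in the Trp63-positive epithelial cells than in members, by 2.90, 2.61 and 1.66. Cldn8 and Sparc also had their highest class means there, 3.39 and 5.97 against 2.90 and 5.65 in members, though these differences were not called.

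Perp and Wnt6 are among the markers of surface ectoderm that were listed for checking the sort. The summed FPKM of the 8 such markers other than Trp63 ranged from 0 to 1453 in members (median 63.6) and from 0 to 416 in Oc90-negative cells (median 0). At least 3 of them were found in 13 members and 3 Oc90-negative cells. The 4 that were tested, Perp, Wnt6, Sfn and Tfap2b, all had higher means in members than in Oc90-negative cells (median difference 1.18), and Perp and Wnt6 were called. The rest of the 8 were at or near 0 in members: Krt5 and Grhl3 were found in none, and Krt14 and Krt15 in 1 each. Markers of neurons reached 3 or more in 15 members and 14 Oc90-negative cells, with median sums of 32.9 and 33.4, and the defining marker Stmn2 was found in 4 members. Neural crest and glial markers reached 3 or more in 13 members and 5 Oc90-negative cells (median sums 32.9 and 16.6), with Foxd3 in no member. Neural tube progenitor markers did so in 19 and 10 (median sums 31.6 and 23.2), with Pax7, Olig2, Dbx2 and Zic2 in no member. For endothelium, 6 of 7 markers were found in no member, and 1 member held 3 or more macrophage markers. The part of other cells, or of more than 1 cell in a well, in the results was not tested, and no doublet caller was run on these wells. With the 7 cells that held endothelial or macrophage markers left out, all 24 genes were still called.

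Dorsal genes of the vesicle had the highest median difference of the lists of otic, pathway and cell cycle genes; only the 4 tested surface ectoderm markers, of which Perp and Wnt6 were called, had a higher one (1.18). Of 15 listed genes 8 were tested, 7 of them were higher in members, and the median difference was 0.92 against -0.05 for all genes, but none of the 8 was called. Msx1, a homeobox target of BMP signalling, had means of 4.45 and 4.36 in members against 1.63 and 1.77 in Oc90-negative cells (difference 2.71, SE 0.64, adjusted p = 0.144). Msx2 had means of 3.22 and 2.80 against 0.76 and 0.53 (adjusted p = 0.0931). Both were higher in 6 of 6 plates. Bmp4, a BMP ligand, was found in 22 of 68 members and 6 of 52 Oc90-negative cells, and Lmx1a in 52 and 30. Against all other cells, where 4.55% of all genes were called higher, 5 of the 8 were: Lmx1a, Msx1, Msx2, Gata2 and Bmp4. Foxi3 was found in no cell, and Wnt2b and the anion exchanger gene Slc26a4 of the endolymphatic duct in 2 members and 1 member.

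Neurosensory genes lay on the other side. Of 20 tested genes 17 were lower in members, with a median of -0.45, and 2 were called, Lfng among them. Sox2, a factor of the prosensory and neurogenic domain, had means of 1.985 and 1.406 against 3.308 and 3.103 (adjusted p = 0.262). Jag1, a Notch ligand, was lower by 1.75 in replicate 1 and 1.08 in replicate 2 (adjusted p = 0.295), and Fgf10 was found in 22.1% of members and 44.2% of Oc90-negative cells. Fgf8 was found in no member. The gates favour this direction, since cells with high Neurod1 were kept out of the members only. With the Trp63 and Neurod1 limits also set on the reference, 10 cells left it and 23 genes were called higher and 4 lower. Lfng was then at -0.97 (limma, adjusted p = 0.0565) and Stmn1 at -0.32 (adjusted p = 0.237), so neither was called. Eya1, a transcriptional coactivator of the otic epithelium, was lower in members in 6 of 6 plates (3.46 and 3.72 against 5.46 and 5.63, adjusted p = 0.304).

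Among signalling pathways, no list had more than 2 called genes in this comparison. The lists overlap, so their counts are not independent. Msx1, Msx2 and Bmp4 are in the dorsal and BMP lists. Lfng and Jag1 are in the neurosensory and Notch lists, and Fgf10 is in the neurosensory and FGF lists. Of 19 BMP genes 13 were higher in members (median 0.60, 0 called); the pseudoreceptor gene Bambi had means of 4.078 and 4.239 against 1.967 and 2.295 (adjusted p = 0.0774), and Id3 had 9.42 and 9.63 against 8.05 and 9.06. Of 31 Wnt genes 18 were higher (median 0.05), with Wnt6 and Notum called; Sfrp1, a secreted Wnt antagonist, had means of 2.13 and 1.91 against 4.17 and 4.03 (adjusted p = 0.175). Of 18 FGF genes 14 were lower (median -0.31, 0 called): Etv5, a target of FGF signalling, was found in 41.2% of members and 75.0% of Oc90-negative cells, and Spry1, a feedback inhibitor, in 39.7% and 65.4%. The receptor gene Fgfr2 went the other way, found in 69.1% and 38.5%. Of 20 Notch genes 13 were lower (median -0.35, Lfng called), and of 17 retinoic acid genes 13 were higher (median 0.11, 0 called).

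**Figure D4:**
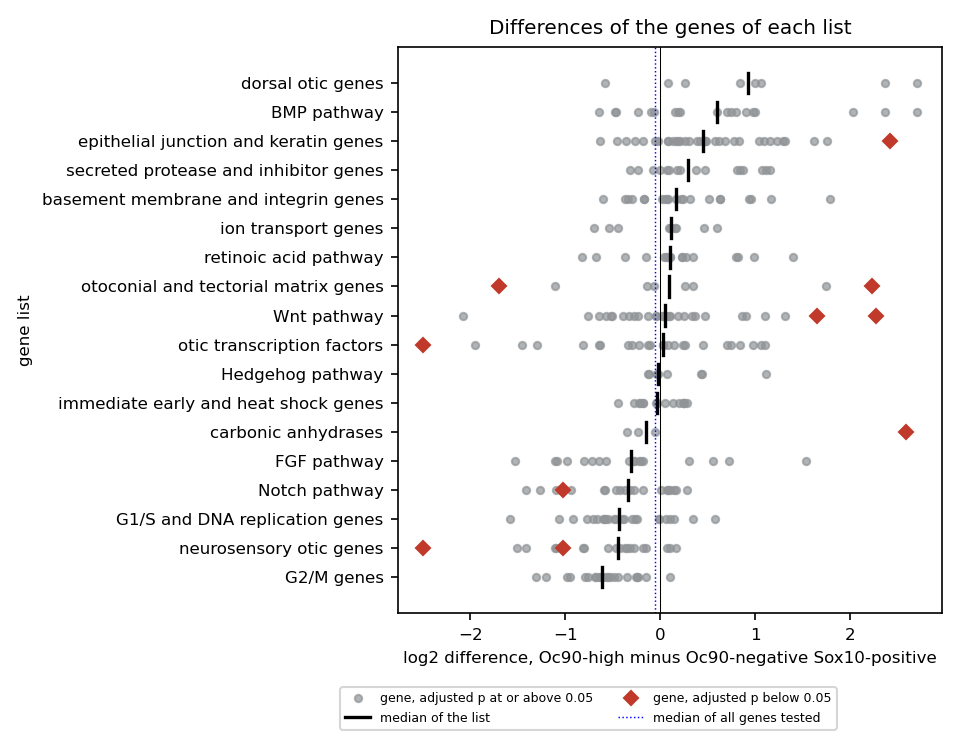
Difference in mean log2(FPKM + 1), Oc90-high minus Oc90-negative Sox10-positive cells, of each tested gene (points) in 18 gene lists (rows; markers of other cell types are not shown), with list medians as black bars, called genes as red diamonds and the median of all genes as a dotted line. Of these lists, dorsal otic genes have the highest median (0.92) and G2/M genes the lowest (-0.61).

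Genes of epithelial junctions were widely found in members. Against all other cells, 466 of 10232 genes were called higher (4.55%) and 209 lower (2.04%), together 6.6%, with a median difference of 0.08. These counts were 309 and 123 without plate 2. On plate means they were 520 and 270 with both replicates, 230 and 124 without replicate 1, and 127 and 37 without replicate 2. Of 34 tested genes for junctions and keratins, 24 were called higher and 0 lower, but the gate on Epcam selects epithelium and this direction is therefore not independent of it. Against the Oc90-negative cells 27 of the 34 had a higher mean in members (median 0.44, against -0.05 for all genes), and Cldn8 was called. Cldn6 was found in all 68 members and in all 52 Oc90-negative cells, with means of 7.75 and 8.19 against 7.34 and 7.65 (adjusted p = 0.807). Krt18 was also found in all cells of both classes. Of 12 neuron markers 9 were called lower than in all other cells, among them Elavl4 and Tubb3, a direction that the gate on Neurod1 favours.

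Genes for the acellular matrices of the ear were partly on. Of 8 tested, 5 were called higher than in all other cells, against 4.55% of all genes (Col9a1, Col11a1, Sparc, Col9a2 and Noxo1). Against the Oc90-negative cells the list was split, with 4 genes higher and 4 lower in members and a median difference of 0.09. In that comparison Sparc was called higher and Otol1 lower. Col11a1, a fibrillar collagen chain, had means of 3.46 and 2.83 in members against 1.39 and 1.42 in Oc90-negative cells (adjusted p = 0.0553). Noxo1 and Nox3, parts of the NADPH oxidase needed for otoconia, were found in 15 and 6 members, and Nox3 in 1 Oc90-negative cell. Tecta, of the tectorial membrane, was found in 1 member and Tectb in none. Of 10 tested ion transport genes none was called in either comparison.

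Cell cycle genes were lower in members without any being called. Of 24 G2/M genes 23 had a lower mean (median -0.61), and of 24 genes of G1/S and DNA replication 19 did (median -0.43). The mean over the G2/M genes was 3.495 and 3.201 in the replicates of members and 4.383 and 3.499 in those of the Oc90-negative cells, so the gap was large in replicate 1 and small in replicate 2. Against all other cells the 24 G2/M genes had a median difference of 0.23. The number of genes found per cell was similar, with a median of 4757 in members and 4888 in Oc90-negative cells.

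Members varied among themselves, and some genes varied together. Spearman correlations over the 68 cells were computed for 300 pairs of 25 genes, and the middle 95% of them lay between -0.37 and 0.49. Cells of a replicate share their source, and linked wells share signal, so these correlations are descriptions. The strongest was between Msx1 and Prss56, at 0.69 (0.72 in replicate 1 and 0.66 in replicate 2), and it was 0.77 in the 21 members without a source well. Prss56 and Notum correlated at 0.58 (0.73 and 0.41), and Dlx5 and Notum at 0.58 (0.53 and 0.68). Prss56 was found in 24 of 27 members with Notum (88.9%) and in 12 of 41 without it (29.3%). Msx1, Prss56, Dlx5, Notum, Sparc and Perp were put together with these correlations known, and Prss56, Notum, Sparc and Perp were called in these same cells. All 15 pairs among them were positive in both replicates, from 0.26 (Sparc and Notum) upward over the 68 cells, which this choice favours. Most of these pairs lay inside the middle 95% of all pairs. Those inside ran from 0.26 (Sparc and Notum) to 0.48 (Sparc and Perp).

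Some pairs tended to exclude each other. Gbx2 and Tbx1, a T-box factor of the otic epithelium picked after its values were seen, correlated at -0.52 (-0.47 and -0.60). Gbx2 was found in 17 of 38 members with Tbx1 (44.7%) and in 24 of 30 without it (80%), in the same direction in both replicates. Tbx1 had means of 3.69 and 3.58 in members against 2.26 and 1.59 in Oc90-negative cells (adjusted p = 0.0858). Lmx1a and Bmp4 correlated at -0.53 (-0.62 and -0.44): Lmx1a was found in 9 of 22 members with Bmp4 (40.9%) and in 43 of 46 without it (93.5%). In the 21 members without a source well these correlations were -0.59 and -0.58. Neither pattern was particular to members. In Oc90-negative cells Gbx2 was found in 4 of 15 with Tbx1 (26.7%) and in 17 of 37 without it (45.9%). Lmx1a was found there in 2 of 6 with Bmp4 (33.3%) and in 28 of 46 without it (60.9%).

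Correlations of neurosensory and otic genes with the group of Msx1 and Prss56 differed by gene. Over the 68 cells Sox2, Eya1 and Otol1 were negative with each gene of that group. Sox2 ran from -0.09 (Msx1, 0.11 in replicate 1) to -0.45 (Perp). Eya1 ran from -0.17 (Msx1) to -0.41 (Dlx5). Otol1, found in only 11 members, ran from -0.03 (Sparc, 0.07 in replicate 2) to -0.30 (Notum). With Msx1, Otol1 was at 0.11 in replicate 1. Jag1 had both signs, with 0.19 for Msx1, 0.16 for Prss56 and -0.10 for Sparc. Sox2 was found in 11 of 38 members with Perp (28.9%) and in 21 of 30 without it (70%). In Oc90-negative cells these were 5 of 7 (71.4%) and 32 of 45 (71.1%). All 11 members with Otol1 had Eya1, which was also found in 36 of 57 without Otol1 (63.2%). In Oc90-negative cells Eya1 was found in 25 of 25 with Otol1 and in 25 of 27 without it (92.6%). Sox2 was also correlated with the number of genes found in a cell (0.38), more than Prss56, Dlx5 and Notum (-0.04, -0.06 and 0.04); the part of depth in the Sox2 pairs was not tested. The level of Oc90 itself had a correlation of 0.03 with that of Epcam (-0.08 and 0.14 in the replicates).

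**Figure D5:**
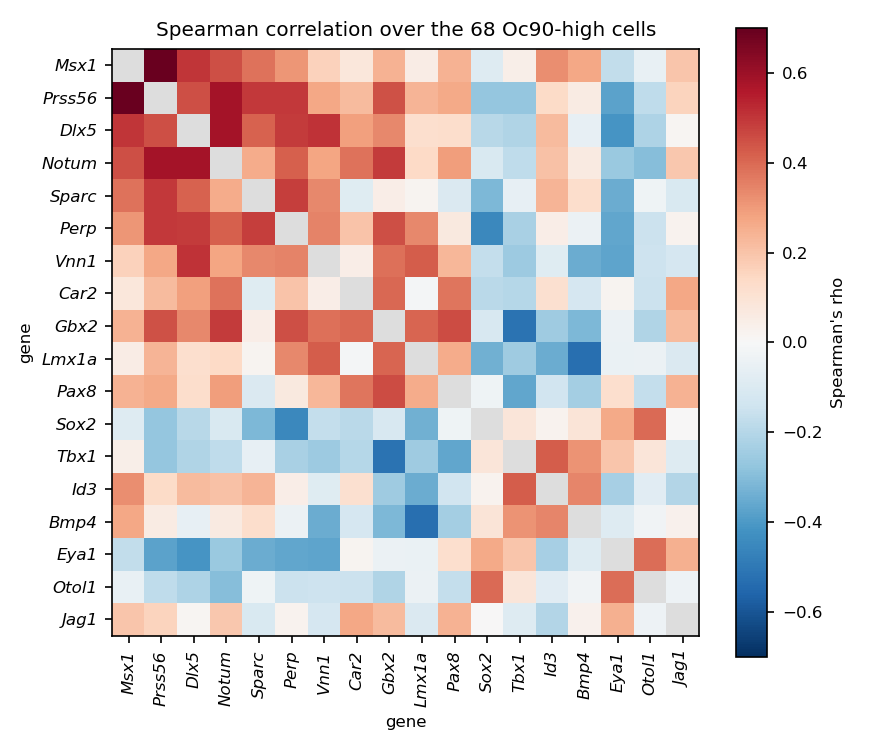
Spearman correlation over the 68 Oc90-high cells for each pair of 18 genes, red for positive and blue for negative, with the diagonal in grey. Msx1, Prss56, Dlx5, Notum, Sparc and Perp were placed side by side with their correlations known and form a red block at the upper left. Gbx2 with Tbx1 (-0.52) and Lmx1a with Bmp4 (-0.53) are the deepest blue.

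The result against the Oc90-negative cells was also set beside the sharing of signal between wells. With every value below 15% of a linked source set to 0, 15 genes were called higher and 4 lower, and 18 of the 24 were among them. Without the 5 members whose Oc90 or Epcam was below 15% of a source, 32 were called higher and 6 lower, and all 24 were among them. In cells with no source well, 21 in each class, 15 were called higher and 12 lower, and 11 of the 24 were among them. There Prss56 was at 3.71 (limma, adjusted p = 0.0204), and Notum, Perp, Cldn8, Bmper and Slc30a4 were also called. S100a11 was not called, at 0.72 (adjusted p = 0.698), Lrrtm1 at 0.47 (0.673), Dnajc22 at 0.58 (0.39) and Tulp2 at 0.72 (0.174), each below its value in all cells by more than 1.5 times. Car4 (adjusted p = 0.117), Lhfp (a difference of 2.18, 0.153), Pdgfd (2.08, 0.12), Rspo3 (1.98, 0.0809), Sparc (2.72, 0.1), Wnt6 (1.91, 0.132), Cdo1 (-2.86, 0.0743) and Stmn1 (-0.50, 0.245) were not called either. All 24 kept their sign in each of these fits.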

How the data were processed

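Sorted tdTomato+ cells were lysed singly and each gave a SMARTer cDNA library, per the labels' protocols. The build mm10 and the tools TopHat, Bowtie, Bowtie2, Cufflinks, SAMtools, cutadapt and FastQC are named in the submitters' processing notes, without versions. The deposited values are log2(FPKM + 1): raised to FPKM, 99.75% of values above 0 are numbers of 6 significant digits (relative tolerance 1e-07). Depth in reads is unknown; 2552 to 6403 genes were found per cell (median 4513), and 74.9% of values were 0. Rows were named with GENCODE M21 (19634 of 19659), and 132 rows of repeated identifiers were left out. The members, gene lists and rules were chosen with earlier results of these data known.

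Means of log2(FPKM + 1) per class and replicate were fitted with limma 3.58.1 (trend, R 4.3.3), for genes found in at least 5% of cells. The 5 gate genes and 4 label markers were left out of the tests. The contrast with all other cells weighted the other classes by their cells. Each called gene of the 12 largest differences per direction, and each above all classes, was named; Dync1i1 and Slc16a4, plotted only, fall outside this rule, 1 called gene is not reported here, and Tbx1 was chosen after its values were seen. Alternatives changed the pseudocount, filter, gates, scaling, averaging, block, plates and linked wells. The fit was first checked on simulated data. Deviations of replicate means correlated between classes by -0.006 to 0.105.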

Additional observations from a re-analysis of the deposited data

How the results depend on the processing

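No difference of a called gene changed sign under any alternative that tested it. The count of genes higher than in Oc90-negative cells was 19, and it became 35 with an Epcam threshold of 4, 34 on plate means, 32 without the 5 members below 15% of a source well (chosen after seeing the data), 4 with a filter at 20% of cells and 0 on averaged FPKM. The count lower, 5, became 11, 3 and 0 with the Epcam threshold of 4, the 20% filter and averaged FPKM, and 12 in cells without a source well. The count above each class, 11, became 23, 23 and 19 under the first 3 of these, 18 with no filter, 7 with a pseudocount of 0.1, 2 with the 20% filter and 0 on averaged FPKM, where limma called 308 genes higher than in all other cells in place of 466. Leaving out a replicate or a plate gave 2 to 17 genes higher, 0 to 4 lower, 2 to 11 above each class, and 127 to 373 higher and 37 to 160 lower than in all other cells; where 0 were lower, at least 192 were lower at an unadjusted p below 0.05. The fits without a replicate changed the form too, to 3 plate means per class with a plate block, and compare with the counts on plate means of both replicates (34 higher, 6 lower, 23 above each class). Without the replicate block, 23 genes were higher and 5 lower, and 23 of the 24 were shared. No filter on low values also gave 23 higher and 5 lower, but only 11 of the 24 were shared. The fit of only the 2 classes gave 16 higher and 5 lower, and 12 of the 24 were shared. With only the 2 classes, or only cells without a source well (4 classes), the contrasts with all other classes could not be fitted. The causes of these shifts were not tested; the 20% filter removed 15 of the 24 genes from the test. The files hold no read counts, so the depth behind each value is unknown.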

Other observations

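Among members, the level of Oc90 was compared with 7442 genes, as a description over 68 cells. The middle 95% of Spearman correlations lay between -0.28 and 0.24. Cldn8, a tight junction claudin, had the highest value that held in both replicates, 0.53 overall (0.53 and 0.53) and 0.41 in the 21 members without a source well. Pdia3, a protein disulfide isomerase of the endoplasmic reticulum, had 0.47 overall and 0.43 in those 21 cells. Notum, which varied with Prss56 and Dlx5, had 0.34 with Oc90 overall and -0.06 in the 21 members without a source well.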
